A study of Mus musculus with 23 samples.

Results

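Open chromatin was described at 36 chemokine and chemokine receptor genes of the mouse, 12 of them CC chemokines, 13 CXC chemokines and 11 receptors. They were set by name. Peaks of all 23 libraries that overlapped were merged into 155137 regions, and a region was counted for a member when no other protein-coding gene body was closer and the distance was at most 50 kb. This gave 312 regions at 35 members. Cxcl11, a ligand of CXCR3 in other mouse strains, is listed as a transcribed pseudogene in the gene table (GRCm38.p6) and received none. Receptors held 153 regions, CC chemokines 90 and CXC chemokines 69.

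Chemokines are small secreted proteins that draw leukocytes along a gradient by binding G protein-coupled receptors on the cell surface. CC and CXC chemokines differ in the spacing of their first cysteines, and genes of each class lie in clusters. Macrophages of the liver release CXCR2 ligands that attract neutrophils and CCR2 ligands that attract monocytes, and circulating monocytes carry CCR1, CCR2, CX3CR1 and CXCR4. ATAC-seq reports where a transposase could cut DNA, so the values below describe accessibility near these genes and not their RNA or protein.

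The libraries form 11 groups in 4 experiments. In the repopulation experiment, Clec4f-cre/Rosa26iDTR mice express the diphtheria toxin receptor in cells in which the Kupffer cell gene Clec4f has driven Cre. There were 2 libraries of Ly6C-high blood monocytes from untreated C57BL/6J mice. Repopulating liver macrophages (titled RLM, and ClecNeg in the headers) gave 3 libraries 24 h and 2 libraries 48 h after toxin, and Kupffer cells of PBS-treated mice gave 2. Blood monocytes thus came from mice without these alleles. In the Nr1h3 experiment, which concerns the nuclear receptor LXRα, there were 2 libraries each of TIM4- and TIM4+ Kupffer cells from Nr1h3 flox/flox Clec4f-cre +/- mice and 2 of TIM4+ Kupffer cells from Nr1h3 flox/flox mice. Deletion there depends on Clec4f, and titles call the knockout cells ClecPos and the control cells ClecNeg, which the labels do not explain. In the Smad4 experiment, 2 Kupffer cell libraries are titled Smad4 knockout and 2 control, but the strain labels give Smad4 flox/flox to those titled knockout and Smad4 flox/flox Clec4f-cre +/- to those titled control. Directions below follow the titles, and the strain labels would give the opposite ones. In the culture experiment, C57BL/6J bone marrow-derived macrophages cultured for 4 days were given the Notch ligand DLL4 for 24 h or left untreated, with 2 libraries each.

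Depth was 10.4 to 18.4 M tags per library, with 48775 to 104206 peaks and 15.4% to 54.7% of tags in peaks. Regions of the members made up 0.203% to 0.307% of the regions of a library. The defining Kupffer cell gene Clec4f, and also Timd4 and Marco, had no peak in blood monocytes or at 24 h and 48 h. Clec4f also had none in the libraries titled Smad4 knockout or in marrow macrophages. Summed signal of the list of 7 Kupffer cell markers was 465.7 to 663.25 in blood, 524.87 to 567.33 at 24 h and 778.2 to 822.13 at 48 h. It was 1010.66 to 1139.76 in Kupffer cells of PBS-treated mice. Marrow macrophages had 1014.1 to 1155.75 untreated and 1276.26 to 1285.93 after DLL4. Of 6 hepatocyte markers, 5 (Alb, Ttr, Cyp3a11, Serpina1a and Fgb) had no peak in any liver library. The other, Apoa2, had a peak in every liver and blood library. Its summed signal was 173.5 to 217.6 in Kupffer cells of PBS-treated mice, 461.9 to 487.6 in TIM4- knockouts and 329.7 to 352.4 in blood. Peaks at Nr1h3 and Smad4 were present in the knockouts of each, with summed signals of 543.3 and 619.4 in TIM4- and 338.3 and 392.4 in TIM4+ knockouts, against 395 and 328.8 in controls, and of 73.1 and 81.22 in libraries titled Smad4 knockout, against 74.5 and 92.9 in those titled control. The deleted exons are not given in the sources used here, so these values do not check the genotype.

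Each value below is a normalised tag count, the tags in a peak per 10 M tags of the library, as deposited. Fold changes are log2 with their standard error (SE), relative to the median shared region of a library, and were tested with limma in regions that had a peak in every library of both groups, with p adjusted over all such regions. A region is called group-only where every library of one group has a peak and no library of the other does, which is not tested and depends on the peak threshold. The repopulation titles carry mouse numbers, and the Smad4 titles carry a different number for each library whose meaning the labels do not give. Nothing says that other libraries came from separate animals or cultures, so p-values measure the spread between these libraries. In bulk libraries, fewer cells with an open region and less signal per cell cannot be told apart. Regions are placed by the distance in kb of their midpoint from the gene's start site, with minus for upstream, or, where the start is not in the promoter table, by the distance from the gene body, on mm10.

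The members held a median of 7 regions, against 5 over all genes with a region. Cxcr4 had the most with 30, followed by Ccr1 and Cxcr5 with 19 each, and Cxcl10 and Ppbp had 1 each. Of the 312 regions, 70 (22.4%) had a peak in all libraries, compared with 17.2% of all regions, and 37 in 1 library. Most lay outside genes, since 69 (22.1%) were inside a gene body, compared with 67.8% of all regions within 50 kb. The gene model of Ccl4 overlaps that of Ccl3, and 4 member regions were as near to another gene. The rule takes the nearest gene, so a region may act on another gene or on none.

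**Figure D1:**
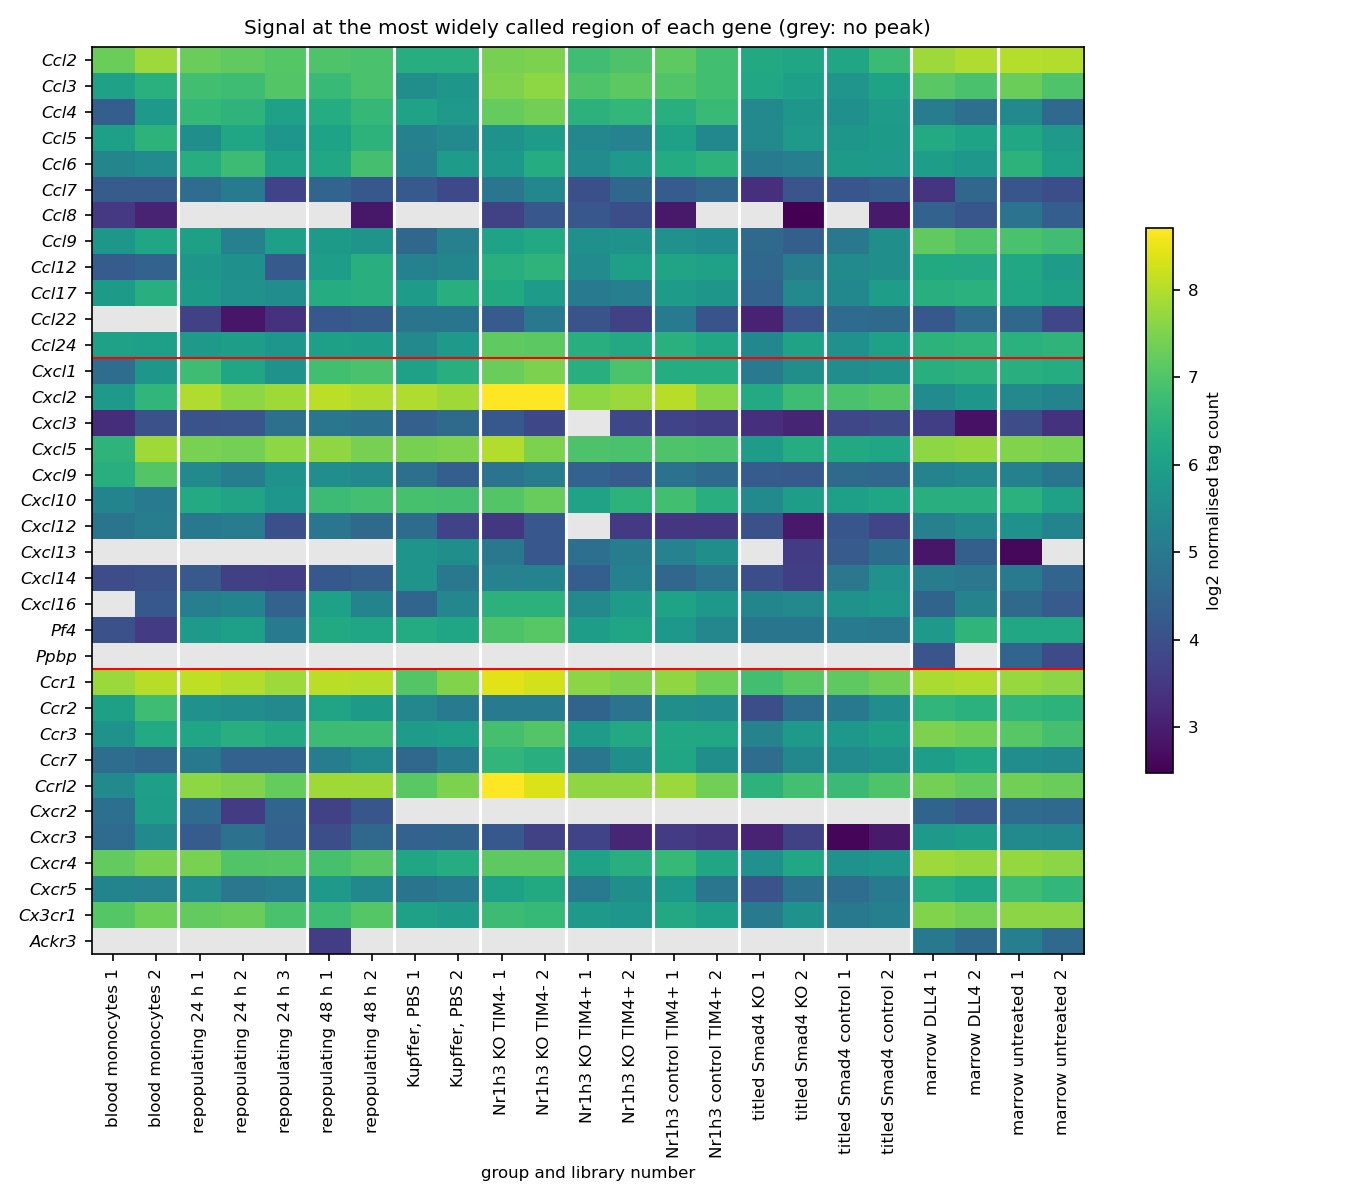
Log2 normalised tag count (colour) in each of 23 libraries (columns) at the region of each gene that had a peak in the most libraries (rows, by class), with grey for no peak. Cxcl2 is bright in all liver libraries, and Cxcl13 is grey in all 7 blood, 24 h and 48 h libraries.

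Promoters were available for 26 members from RefSeq (GRCm38.p6), each running from 250 bases before to 50 after the start site. Those below were picked after the values were seen. The promoter peaks of Cxcl1, Cxcl2, Cxcl10, Pf4, Cx3cr1 and Ccr1 were called in at least 1 comparison that follows, and that of Cxcl3, called in none, is shown for its letters. Capitals mark matches, on either strand, to short letter patterns of factors studied in macrophages, here NF-κB (GGG and TTTCC with 2 bases between), the interferon response element ISRE (TTTC repeated after 2 bases), AP-1 (TGANTCA), PU.1 (GAGGAAGT), C/EBP (TTGCNNAA) and RBPJ (TGGGAA). The neutrophil attractants Cxcl1, Cxcl2 and Cxcl3 share the NF-κB letters close to their starts.
Cxcl1, chr5:90890995-90891294, plus strand: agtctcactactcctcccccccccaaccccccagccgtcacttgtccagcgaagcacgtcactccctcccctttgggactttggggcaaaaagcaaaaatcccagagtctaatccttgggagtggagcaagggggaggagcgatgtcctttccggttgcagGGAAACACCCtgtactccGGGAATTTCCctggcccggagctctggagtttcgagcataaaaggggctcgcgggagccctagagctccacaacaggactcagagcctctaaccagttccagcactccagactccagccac
Cxcl2, chr5:90903649-90903948, plus strand: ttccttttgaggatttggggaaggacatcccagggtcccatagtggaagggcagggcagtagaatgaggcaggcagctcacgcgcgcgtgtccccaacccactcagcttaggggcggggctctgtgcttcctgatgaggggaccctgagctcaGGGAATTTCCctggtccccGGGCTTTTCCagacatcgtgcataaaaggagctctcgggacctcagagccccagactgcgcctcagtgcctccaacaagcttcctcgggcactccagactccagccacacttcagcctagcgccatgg
Cxcl3, chr5:90785851-90786150, plus strand: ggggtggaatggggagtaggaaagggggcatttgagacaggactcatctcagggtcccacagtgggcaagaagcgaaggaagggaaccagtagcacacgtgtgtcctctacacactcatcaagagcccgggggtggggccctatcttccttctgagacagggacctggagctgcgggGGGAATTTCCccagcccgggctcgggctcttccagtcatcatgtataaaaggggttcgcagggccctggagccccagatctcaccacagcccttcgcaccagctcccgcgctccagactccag
In Cxcl1 the capitals are NF-κB letters that begin 89 and 71 bases before the start site, in Cxcl2 97 and 78, and in Cxcl3 73. A T/A-rich stretch with the letters ataaaa stands between them and the start in all of these promoters.

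The next promoters carry matches to other patterns or to none. Only exact matches were marked, so close variants are not counted. In Cxcl10 the letters gggaaattcc come close to the NF-κB pattern. Cxcl10, an interferon-induced ligand of CXCR3, has ISRE letters 213 bases and AP-1 letters 74 bases before the start. Pf4, platelet factor 4, has C/EBP letters 212 bases and PU.1 letters 10 bases before it, and Cx3cr1, the fractalkine receptor, has RBPJ letters 114 bases before it. Ccr1, a receptor for Ccl3, Ccl6 and Ccl9, has none of the patterns in this window.
Cxcl10, chr5:92348840-92349139, minus strand: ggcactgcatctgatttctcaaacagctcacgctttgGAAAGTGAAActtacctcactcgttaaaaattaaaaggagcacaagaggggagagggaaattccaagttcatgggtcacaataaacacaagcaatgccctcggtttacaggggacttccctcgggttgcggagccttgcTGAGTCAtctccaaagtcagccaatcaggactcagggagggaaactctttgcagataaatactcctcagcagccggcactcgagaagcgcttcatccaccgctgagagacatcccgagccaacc
Pf4, chr5:90772185-90772484, plus strand: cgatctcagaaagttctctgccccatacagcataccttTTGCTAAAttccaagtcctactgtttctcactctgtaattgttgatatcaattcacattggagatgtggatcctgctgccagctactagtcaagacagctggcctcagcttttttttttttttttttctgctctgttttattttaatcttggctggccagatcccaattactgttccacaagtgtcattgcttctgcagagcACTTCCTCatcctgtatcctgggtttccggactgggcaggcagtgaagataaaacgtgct
Cx3cr1, chr9:120068247-120068546, minus strand: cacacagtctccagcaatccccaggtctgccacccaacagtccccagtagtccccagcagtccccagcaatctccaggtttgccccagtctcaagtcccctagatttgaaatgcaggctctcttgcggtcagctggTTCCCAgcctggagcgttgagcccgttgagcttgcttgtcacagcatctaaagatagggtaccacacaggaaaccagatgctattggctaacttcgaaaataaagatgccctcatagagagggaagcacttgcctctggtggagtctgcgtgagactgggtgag
Ccr1, chr9:123968643-123968942, minus strand: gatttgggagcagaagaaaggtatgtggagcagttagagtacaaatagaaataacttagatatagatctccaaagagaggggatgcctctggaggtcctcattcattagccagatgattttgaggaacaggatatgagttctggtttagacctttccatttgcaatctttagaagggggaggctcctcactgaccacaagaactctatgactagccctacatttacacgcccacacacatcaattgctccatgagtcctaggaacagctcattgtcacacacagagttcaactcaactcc

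Over the 26 promoters, NF-κB letters were in 5 (19.2%), those of Ccl9, Cxcl1, Cxcl2, Cxcl3 and Ccr3, compared with 1.62% of the promoters of 27025 genes. AP-1 letters were in 5 (19.2%, compared with 7.93%), PU.1 letters in 2 (7.69%, compared with 3.28%) and ISRE letters in 2 (7.69%, compared with 3.49%). C/EBP letters were in 3 (11.5%, compared with 10.8%) and RBPJ letters in 9 (34.6%, compared with 25.5%). In Ccr3 an NF-κB and an RBPJ match overlap. Matching letters describe the sequence and do not show binding. Between 57.7% and 80.8% of the 26 promoters overlapped a peak in a library, compared with 48.1% to 52.8% of 17273 promoters of all genes.

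Repopulating liver macrophages collected 24 h after toxin were set against blood monocytes. Signal rose at the neutrophil attractants Cxcl1 and Cxcl2, at Pf4, at the atypical receptor gene Ccrl2 and in all 5 tested regions of Ccl3. It fell at Cxcr4, the CXCL12 receptor that holds cells in the marrow, and at Cx3cr1. Of 111 member regions tested at 29 genes, 27 (24.3%) rose, against 16.7% of all regions tested, and 10 (9.01%) fell, against 9.33%. Higher calls fell on 14 genes, lower calls on 6, and Ccl2 had both. CC chemokines had 11 higher and 2 lower of 45, CXC chemokines 7 and 1 of 17, and receptors 9 and 7 of 49. The median log2 fold change over the member regions was 0.16, beside 0.09 over all regions.

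Cxcl2 had 249.0, 198.8 and 224.8 in 24 h cells, against 57.0 and 95.9 in blood monocytes, in the region at its start (chr5:90903498-90903835, -0.23 kb). The groups were far apart and did not overlap, with a log2 fold change of 1.85 (SE 0.17, adjusted p = 4.54e-09). Both NF-κB matches of the promoter printed above lie inside this region, which is merged over libraries and can be wider than a single peak. Cxcl1, its neighbour, had 63.7, 44.5 and 35.1 in 24 h cells, against 15.5 and 13.4 in blood, in a region 14.2 kb upstream (chr5:90876925-90877174, log2 fold change 1.89, adjusted p = 5.59e-05). All 24 h values exceeded both blood values there. At the Cxcl1 start itself no blood library had a peak. Pf4, which macrophages as well as megakaryocytes can express, had 58.0, 63.6 and 32.2 at its start in 24 h cells, against 16.3 and 12 in blood (chr5:90772319-90772596, log2 fold change 2.01, SE 0.33, adjusted p = 3.97e-05). The groups did not overlap, although 1 of the 24 h libraries was lower than the others. Cxcl10 had 78.6, 69.0 and 54.1 at its start in 24 h cells, against 39.1 and 33.1 in blood, with a log2 fold change of 1.13 (adjusted p = 0.0016). Every 24 h value was above the blood values.

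Among CC chemokine genes, Ccl3, a ligand of CCR1, had 52.4, 75.4 and 47.4 in 24 h cells, against 26.0 and 18.3 in blood, in a region 10.2 kb downstream of its start (log2 fold change 1.62, adjusted p = 0.000198). Ccl24, an eotaxin that binds CCR3, had 39.3, 42.7 and 15.2 against 13.8 and 9.16 9.27 kb from the gene (chr5:135582394-135582807, log2 fold change 1.58, adjusted p = 0.00246). The lowest 24 h library was close to the blood values there, and the call was lost without blood library 2 (adjusted p = 0.147). Ccl17, a ligand of CCR4, fell 5.7 kb upstream, with 16.9, 24.5 and 19.0 in 24 h cells, against 52.9 and 98.0 in blood (log2 fold change -1.54, adjusted p = 0.000347). Cxcl9, which binds CXCR3 as Cxcl10 does, fell as well, with 44.0, 34.5 and 50.3 against 83.8 and 132.5 at chr5:92318201-92318486 (log2 fold change -1.03, adjusted p = 0.00215, and 0.0869 without blood library 2). In both, the blood libraries were the higher ones without overlap.

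Receptor genes went both ways. Ccrl2, which binds chemerin without signalling, had 199.4, 183.4 and 150.8 in 24 h cells, against 44.0 and 64.1 in blood, 1.8 kb upstream of its start (chr9:111059222-111059476, log2 fold change 1.98, SE 0.18, adjusted p = 5.16e-09). All 24 h libraries stood far above blood. Of 9 Ccr1 regions 5 also rose and 0 fell, although the values of the groups overlapped in 3 of the 5 before centring, as they did in 1 of the Ccl3 regions. Cxcr4 had 35.6, 35.4 and 24.7 in 24 h cells, against 119.6 and 181.1 in blood, 16 kb upstream (chr1:128608164-128608452, log2 fold change -1.92, SE 0.24, adjusted p = 7.82e-07). Another Cxcr4 region, 50.1 kb upstream, had 28.1, 18.2 and 24.7 in 24 h cells, against 69.2 and 89.5 in blood (log2 fold change -1.45, adjusted p = 0.000364). Blood was higher without overlap in both Cxcr4 regions. Cx3cr1 had 30.9, 15.4 and 30.3 in 24 h cells, against 87.9 and 119.8 in blood, 18.7 kb downstream of its start (chr9:120049449-120049738, log2 fold change -1.76, adjusted p = 4.89e-05). At the Cx3cr1 start the values were 51.5, 49.9 and 68.3 against 114.8 and 127.6 (log2 fold change -0.83, adjusted p = 0.00592). Blood libraries were again the higher ones. Cxcr5, the CXCL13 receptor of B cells, fell in 1 of 3 regions, with 26.2, 20 and 39.8 against 73.3 and 78.9 (chr9:44551144-44551503, log2 fold change -1.17, adjusted p = 0.00445, and 0.112 without blood library 1). Summed signal of 5 B cell markers ran from 119.48 to 162.86 at 24 h and from 162.74 to 193.87 in blood, and its part in the Cxcr5 values was not tested.

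Group-only regions numbered 8 for 24 h cells (3.51% of the 228 member regions seen in either group, beside 3.02% of all) and 12 for blood (5.26%, beside 4.49%). Cxcl5, a CXCR2 ligand, had 2 of the 24 h ones, and Ccr2 and Cxcl12 had 2 each of the blood ones. One such Ccr2 region is at its start (chr9:124101759-124102031), with 18.7 and 24.7 in blood and no peak in any liver library. The calls depended on the blood libraries, with 37 in all, 22 without blood library 1 and 21 without blood library 2. Without centring 16 regions were higher and 15 lower, since the library medians differed by -0.27 on the log2 scale.

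**Figure D2:**
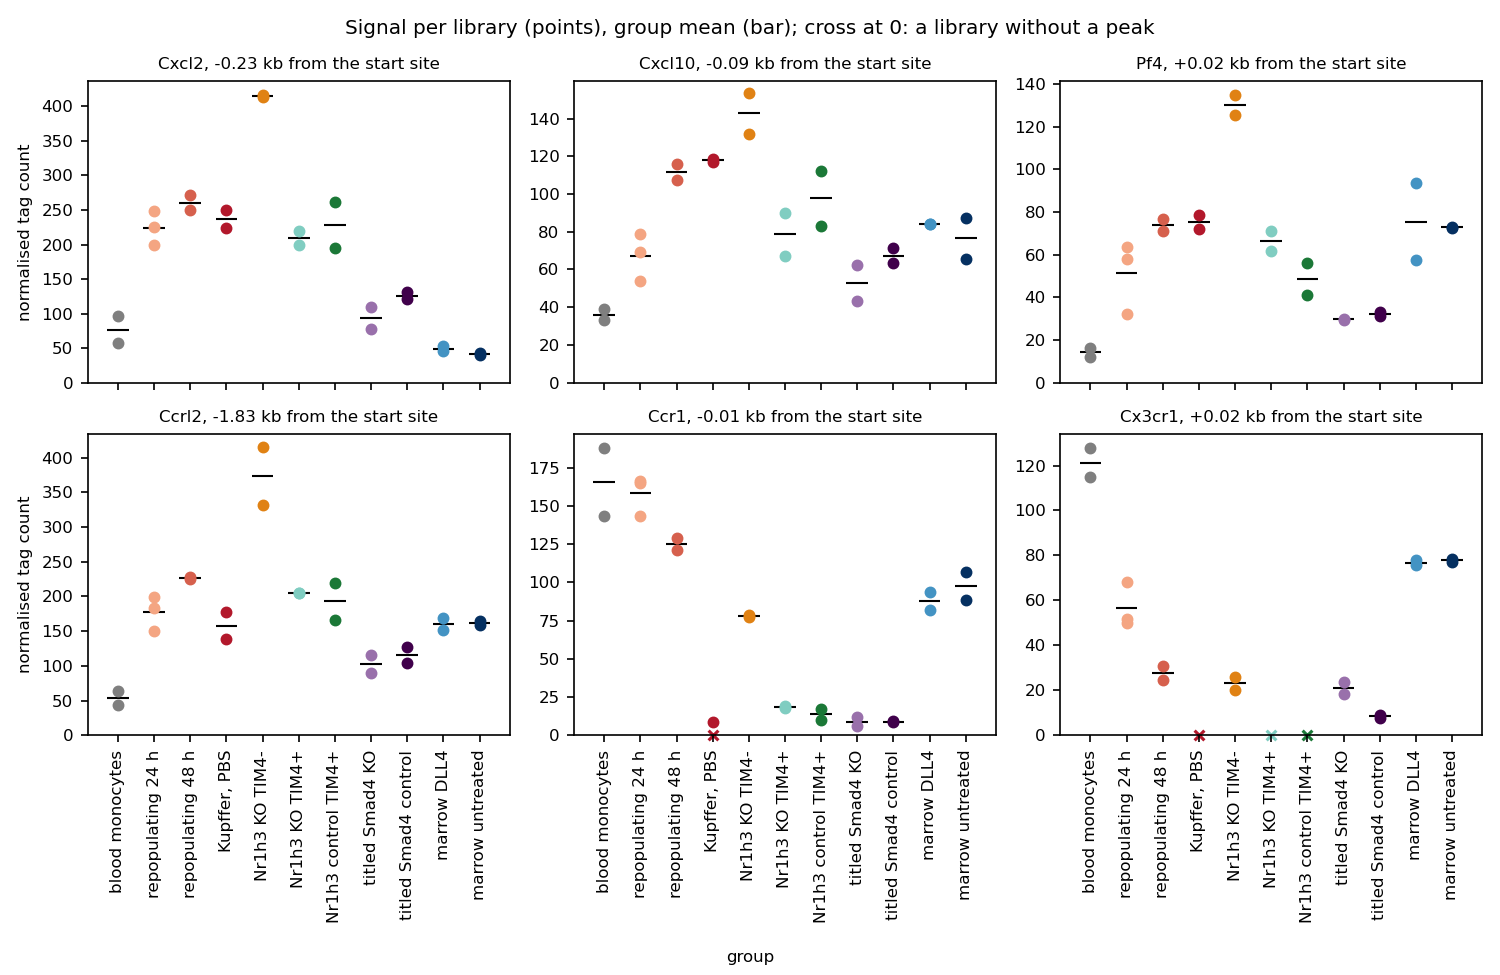
Normalised tag count (y, linear) in every library (points) by group (x), with the group mean as a bar and a cross at 0 for a library without a peak, in one panel per region of a named gene. The Cxcl2 panel shows 24 h cells at 198.8 to 249.0 and blood at 57.0 and 95.9. The Pf4 panel shows Kupffer cells of PBS-treated mice at 78.7 and 71.9 and blood at 16.3 and 12.

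From 24 h to 48 h after toxin few member regions changed. Of 118 regions at 31 genes, 0 rose, against 1.92% of all regions tested, and 1 (0.847%) fell, against 3.53%. That region is the start of Cx3cr1 (chr9:120068112-120068443), with 24.4 and 30.8 in 48 h cells, against 51.5, 49.9 and 68.3 in 24 h cells (log2 fold change -1.17, SE 0.28, adjusted p = 0.0144). The values did not overlap, blood monocytes stood above both times, and Kupffer cells of PBS-treated mice had no peak there. The call was lost without centring (adjusted p = 0.0533) and without 48 h library 1 (0.135) or 2 (0.12), after which no member region passed. Group-only regions numbered 12 for 48 h (5.04% of 238, beside 5.09%), 2 of them at Cxcl1, and 1 for 24 h (0.420%, beside 0.609%).

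Kupffer cells of PBS-treated mice were then set against the 48 h cells, the last time sampled. Ccr1 fell in all 10 of its tested regions. Ccl3 fell in 3 of 4, Ccl2 in 2 of 8, Ccl9 in 2 of 5 and Cxcr4 in 2 of 10, while single regions of Cxcl1, Ccl17 and Ccl22 and 2 of Cxcl14 rose, and Cxcl13 had peaks where 48 h cells had none. Summed signal of 5 monocyte markers was 164.1 to 180.3 in Kupffer cells and 339.9 to 406.9 at 48 h, that of 5 T and NK cell markers 18.93 to 55.7 and 167.9 to 190.9, and that of 5 dendritic cell markers 469.7 to 472 and 877 to 880.2. Of these lists, Chil3, Cd3e and Ncr1 had no peak in Kupffer cells or at 48 h. Ly6c2, Cd2 and Siglech had none in Kupffer cells but a peak in at least 1 library at 48 h. The part of the lists in the falls was not tested. Of 114 member regions at 30 genes, 6 (5.26%) rose, against 13.7% of all regions tested, and 23 (20.2%) fell, against 12.6%. Receptors had 1 higher and 14 lower of 49, CC chemokines 2 and 9 of 44, and CXC chemokines 3 and 0 of 21. The median log2 fold change was -0.33, beside -0.01 over all regions.

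Ccr1 had 45.5 and 50.8 in Kupffer cells, against 161.2 and 147.4 in 48 h cells, 36.8 kb downstream of its start (chr9:123931687-123932166, log2 fold change -1.38, adjusted p = 3.65e-07). It had 9.48 and 15.3 against 54.0 and 66.7 in a region 27.1 kb downstream (chr9:123941375-123941723, log2 fold change -1.94, SE 0.32, adjusted p = 4.19e-06). The groups were apart in both regions. Regions 33.1 kb and 15 kb downstream gave 19.0 and 22 against 54.0 and 97.5 (log2 fold change -1.50, adjusted p = 7.07e-05) and 15.2 and 23 against 59.3 and 66.0 (log2 fold change -1.41, adjusted p = 0.000242). At the Ccr1 start, 1 Kupffer library had no peak and the other 8.63, against 121.1 and 129.1 in 48 h cells, so that region entered no test. Summed over its regions, Ccr1 held 458.1 ± 113 in Kupffer cells and 1239 ± 43.3 at 48 h (SD, n = 2 each).

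Ccl2, which recruits monocytes through CCR2, had 18.0 and 35.5 in Kupffer cells, against 75.8 and 93.9 in 48 h cells, 20.1 kb from the gene (chr11:82015115-82015474, log2 fold change -1.41, adjusted p = 5.52e-05). Cxcr4 fell 16 kb upstream, with 10.4 and 14.4 against 32.2 and 50.6 (log2 fold change -1.36, adjusted p = 0.00156, and 0.0625 without 48 h library 2). It rose 50.1 kb upstream, with 51.2 and 70.9 against 36.6 and 40.3 (log2 fold change 0.92, adjusted p = 0.0055), a call that was lost without centring (0.0871) and by a narrow margin without Kupffer library 2 (0.05002). The values of the groups did not overlap at any of these regions. Cxcl1 had 97.6 and 95.9 in Kupffer cells, against 44.4 and 65.3 in 48 h cells, 3.2 kb downstream of its start (chr5:90894320-90894588, log2 fold change 1.12, SE 0.22, adjusted p = 0.000101). Cxcl14, a chemokine of epithelia and macrophages, had 52.1 and 31.6 against 18.3 and 20.5 at 37.9 kb upstream (chr13:56334280-56334659, log2 fold change 1.31, adjusted p = 0.00172) and 51.2 and 38.3 against 23.5 and 26.4 at 38.4 kb upstream (log2 fold change 1.09, adjusted p = 0.00531). Both Cxcl14 calls rested on Kupffer library 1, since without it their adjusted p was 0.12 and 0.127. The CCR4 ligand genes rose at their starts, Ccl17 with 26.5 and 32.6 against 13.1 and 17.6 (log2 fold change 1.19, adjusted p = 0.00551, and 0.0646 without 48 h library 1), and Ccl22 with 29.4 and 29.7 against 18.3 and 19.8 (log2 fold change 0.89, adjusted p = 0.0352). Leaving out any of the 4 libraries ended the Ccl22 call, with adjusted p from 0.0618 to 0.158, and it was also lost without centring (0.158) and when every library of that experiment was fitted together (0.0591).

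Group-only regions numbered 7 for Kupffer cells (3.03% of 231, beside 4.53%) and 34 for 48 h cells (14.7%, beside 12.8%). Cxcl13 held 4 of the Kupffer ones. Of the 48 h ones Cxcr4 held 6, Ccr1 4, Ccl6 and Cx3cr1 3 each, and Ccl9, Ccr2, Ccrl2, Cxcr2 and Cxcr5 2 each. The 29 calls became 18 without 48 h library 1, 15 without 48 h library 2 and 15 without Kupffer library 1. Without centring 4 regions were higher and 42 lower, since the library medians differed by -0.28.

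**Figure D3:**
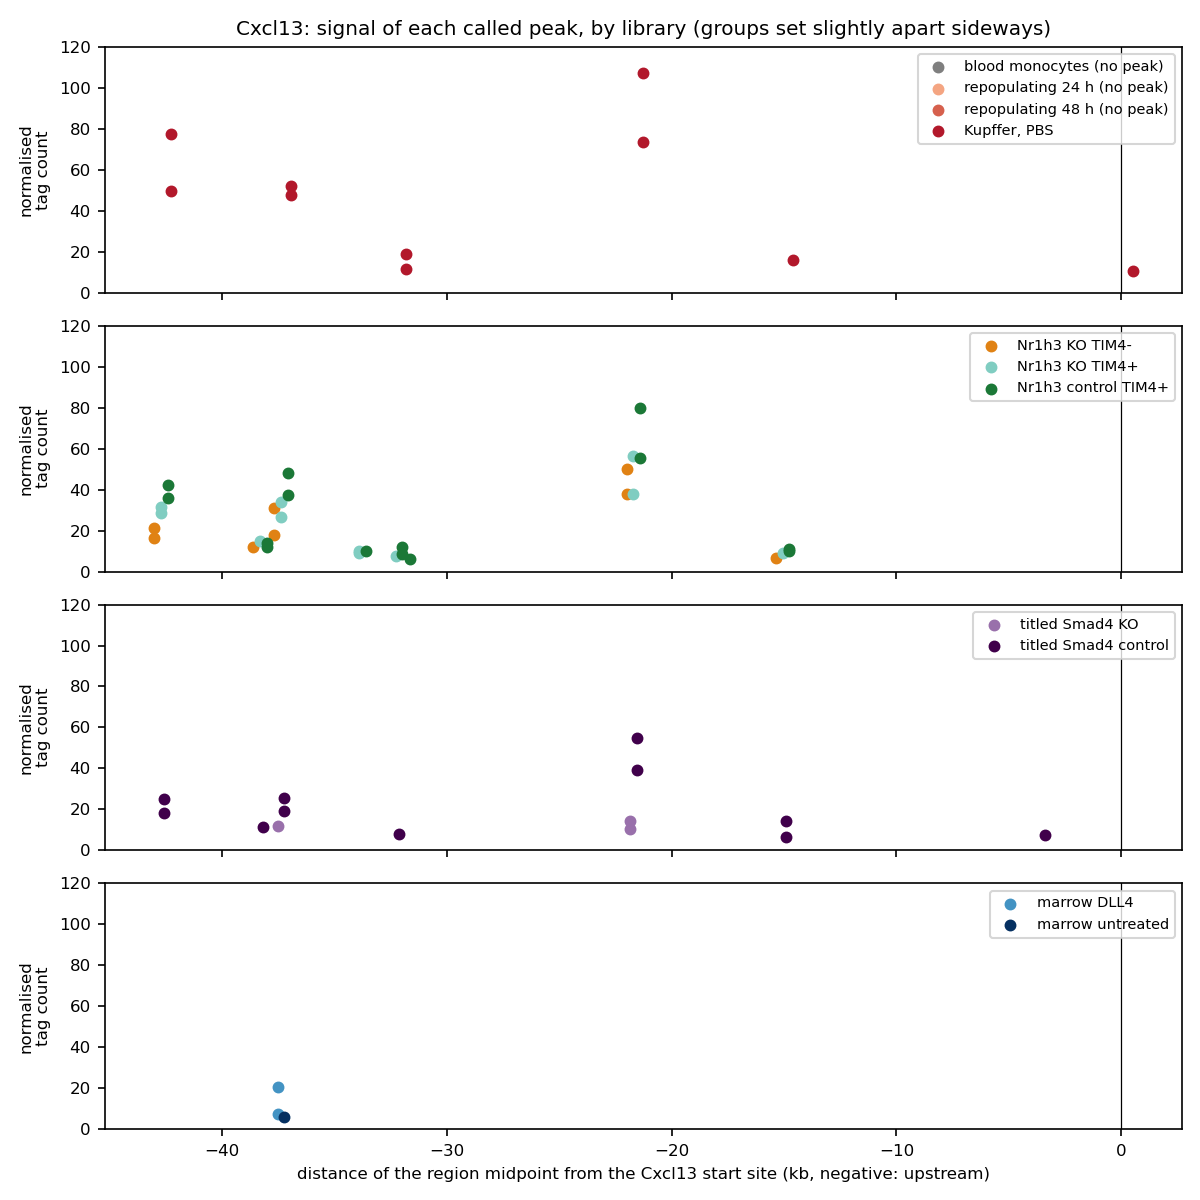
Normalised tag count (y, linear) of each Cxcl13 peak against the distance of its region from the Cxcl13 start site in kb (x, negative upstream), with one panel per experiment and one point per library. Peaks of Kupffer cells stand upstream of the gene at 42.7, 37.4 and 21.7 kb, no library of blood monocytes, 24 h or 48 h cells has a point, and libraries titled Smad4 knockout lie below those titled control.

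Cxcl13 draws B cells through CXCR5. Its 10 regions lie mostly upstream of the gene, and none had a peak in the 7 libraries of blood, 24 h or 48 h cells. In Kupffer cells the region 42.7 kb upstream (chr5:95914090-95914353) had 77.7 and 49.8, the one 37.4 kb upstream (chr5:95919353-95919769) 52.1 and 47.9, and the one 21.7 kb upstream (chr5:95935051-95935409) 107.1 and 73.8. Both Kupffer libraries had all of these peaks. The promoter had a peak in 1 library, a Kupffer one, with 10.4, so the peaks assigned to this gene as the nearest lay mostly away from its start. Summed over its regions the signal of the peaks was 232.7 ± 70.3 in Kupffer cells (SD, n = 2), and the earlier cells gave no value to set beside it. In marrow macrophages only the region 37.4 kb upstream had peaks, with 7.27 and 20.5 after DLL4 and 6.14 in 1 untreated library.

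Kupffer cells against blood monocytes gave the widest differences of the repopulation series, and share their Kupffer and blood libraries with the comparisons above. Cxcl1, Cxcl2, Cxcl10, Pf4, Ccl5 and Ccrl2 led the rises, and Cxcr4, Ccl2, Cxcl9, Cx3cr1, Ccl6 and Ccl9 the falls. Of 93 member regions at 28 genes, 20 (21.5%) rose, against 25.7% of all regions tested, and 25 (26.9%) fell, against 25.3%. Higher calls fell on 15 genes and lower calls on 12. Ccl5 (1 higher and 1 lower of 4), Ccl17 (2 and 1 of 4) and Cx3cr1 (1 and 4 of 6) had both. The classes differed in their counts, with CXC chemokines at 9 higher and 1 lower of 14, CC chemokines at 6 and 11 of 40, and receptors at 5 and 13 of 39. The median log2 fold change was 0.96 over CXC regions, -0.0065 over CC regions and -0.16 over receptor regions, beside -0.0036 over all regions.

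Pf4 had 78.7 and 71.9 at its start in Kupffer cells, against 16.3 and 12 in blood (log2 fold change 2.74, SE 0.31, adjusted p = 2.32e-11). Cxcl10 had 118.5 and 117.0 in Kupffer cells, against 39.1 and 33.1 in blood (chr5:92348802-92349151, log2 fold change 2.08, SE 0.24, adjusted p = 1.99e-11). Cxcl2 had 249.3 and 224.3 in Kupffer cells, against 57.0 and 95.9 in blood (log2 fold change 2.06, SE 0.18, adjusted p = 1.6e-15). The Kupffer libraries were close to each other and clear of blood at all of these starts. Cxcl1 had 61.6 and 59.4 against 15.5 and 13.4 at 14.2 kb upstream (log2 fold change 2.39, adjusted p = 2.6e-09). Ccl5, a ligand of CCR1 and CCR3, had 42.7 and 45.1 against 8.95 and 21.8 (chr11:83534663-83535002, log2 fold change 1.97, adjusted p = 1.09e-06), and Ccrl2 138.4 and 177.3 against 44.0 and 64.1 (log2 fold change 1.93, adjusted p = 8.37e-13). Again no values overlapped.

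Among the falls, Cxcr4 had 10.4 and 14.4 in Kupffer cells, against 119.6 and 181.1 in blood, 16 kb upstream (log2 fold change -3.09, SE 0.28, adjusted p = 2.03e-15). Ccl2 had 18.0 and 35.5 against 105.8 and 172.0 in the region 20.1 kb from the gene (log2 fold change -1.98, adjusted p = 4.91e-10), and Cxcl9 had 27.5 and 20.1 against 83.8 and 132.5 (log2 fold change -1.73, adjusted p = 1.09e-07). The blood libraries were several times higher in each. Cx3cr1 had 16.1 and 32.6 against 87.9 and 119.8 at 18.7 kb downstream (log2 fold change -1.72, adjusted p = 1.57e-07). The CCR1 ligand genes Ccl6 and Ccl9 had 11.4 and 13.4 against 55.3 and 49.3 at 26.1 kb upstream (chr11:83619064-83619353, log2 fold change -1.60, adjusted p = 3.72e-05) and 9.48 and 16.3 against 46.4 and 58.5 at 1.35 kb downstream (chr11:83577103-83577465, log2 fold change -1.59, adjusted p = 4.12e-05). All 12 of these regions passed under every alternative tried.

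Neighbouring ligand genes had calls in the same direction in some places and in opposite directions in others. Cxcl1, Cxcl2, Cxcl3, Cxcl5 and Pf4 on chromosome 5 had 3 of 4, 1 of 2, 1 of 1, 1 of 1 and 1 of 2 tested regions higher and none lower. Values overlapped before centring at the Cxcl5 region (173.5 and 181.2 against 92.8 and 224.8) and 1 Cxcl1 region (86.3 and 87.2 against 54.5 and 88.1). Their group-only regions were 2 blood ones at Cxcl2 and Kupffer ones at Cxcl1 (4), Cxcl5 (1) and Pf4 (1). Ccl6 and Ccl9 on chromosome 11 had 1 of 6 and 4 of 5 lower and none higher. Over all regions tested 25.7% rose and 25.3% fell, and the lower share at Ccl6 was no larger than that. Other neighbours had calls in opposite directions. The rising Cxcl10 region and the falling Cxcl9 region lie 30.3 kb apart on chromosome 5. On chromosome 11, a rising Ccl5 region is 42.1 kb from a falling Ccl9 region, a rising Ccl4 region (log2 fold change 1.25) 42.9 kb from a falling Ccl6 region, and a rising Ccl12 region (1.27) 85.7 kb from the falling Ccl2 region. Another Ccl5 region, between the rising Ccl5 and falling Ccl9 regions, fell too (log2 fold change -0.63, limma adjusted p = 0.0485). These genes and pairs were chosen after the values were seen, and other neighbours were not counted.

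Group-only regions numbered 24 for Kupffer cells (10.4% of 230, beside 12.8%) and 44 for blood (19.1%, beside 15.9%). Cxcl1 and Cxcl13 held 4 each of the Kupffer ones, Cxcl14 3, and Ccr3 and Cxcr5 2 each. Of the blood ones Cxcr4 held 6 and Ccl6 5, Ccl3, Ccr2, Cxcl12 and Cxcr2 4 each, Ccr1 and Ccr7 3 each, and Ccl9 and Cxcl2 2 each. Cxcr2, the receptor for Cxcl1 and Cxcl2 on neutrophils, had no peak in any of the 12 Kupffer cell libraries of the series. Its region 1.64 kb downstream of the start had 26.9 and 61.3 in blood, 25.3, 11.8 and 22.8 at 24 h and 13.1 and 17.6 at 48 h. Of 6 neutrophil markers, Ly6g and Elane had no peak in blood, 24 h, 48 h or Kupffer cells, and the summed signal of the list was 65.9 to 83.9 in blood, 43.5 to 131.7 at 24 h, 47.09 to 67.5 at 48 h and 36.4 to 39.8 in Kupffer cells. Summed signal of 5 dendritic cell markers, a list that includes Ccr7, was 469.7 to 472 in Kupffer cells and 1403 to 1935 in blood. The part of these lists in the receptor values was not tested.

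**Figure D4:**
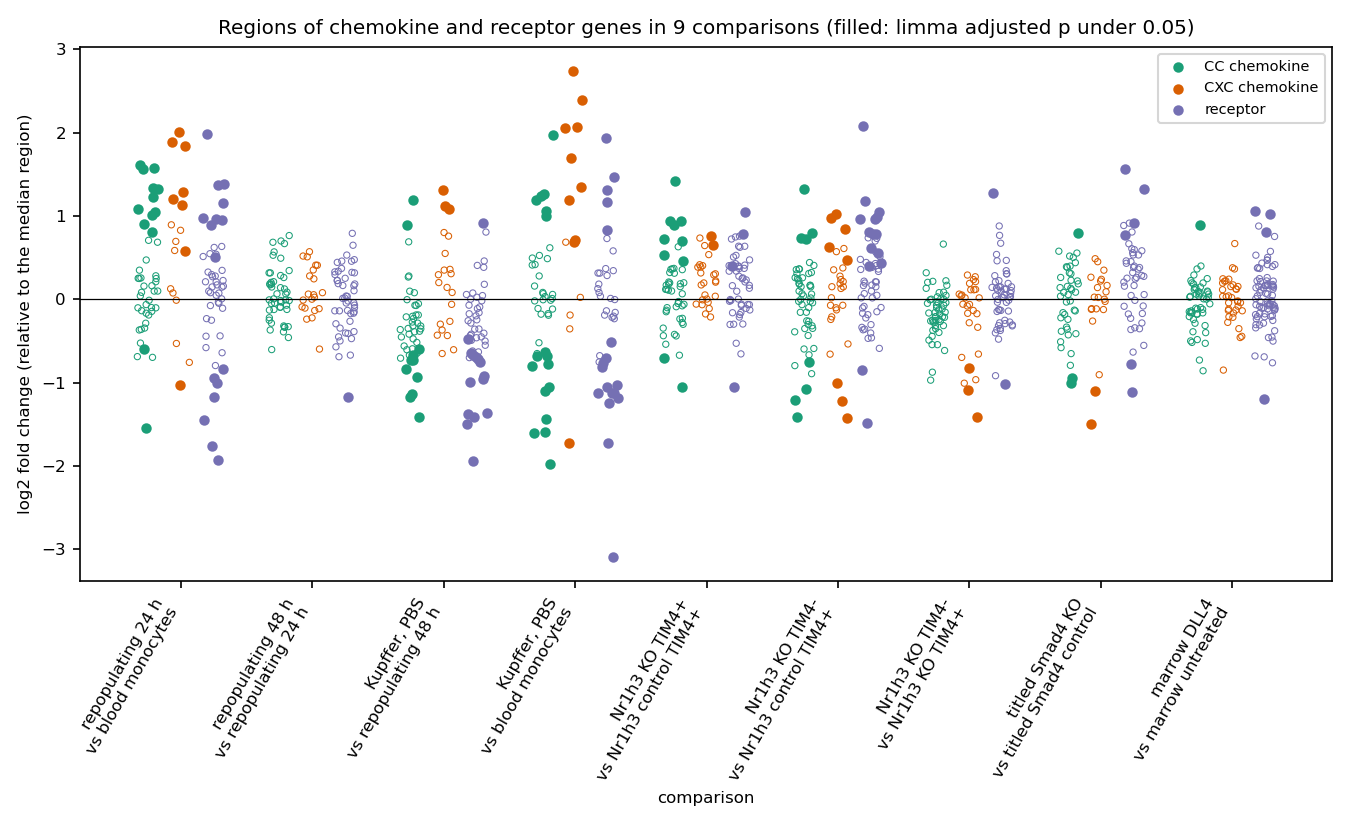
Log2 fold change relative to the median region (y) of each tested member region in the 9 comparisons (x), coloured by class, with filled points for a limma adjusted p under 0.05. The spread is widest for Kupffer cells against blood, where the Cxcr4 region at -3.09 is the lowest point, and CXC chemokine regions lie mostly above 0 there.

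In the Nr1h3 experiment, TIM4+ knockout Kupffer cells were first set against TIM4+ controls. Ccl3 rose in all 3 of its tested regions, in 2 of which the values overlapped before centring, and single regions of Ccr3, Ccl7, Ccl2, Ccl24 and Ccr1 rose as well, while Ccl17, Cxcr4 and Ccl6 fell in 1 region each. Of 123 member regions at 31 genes, 13 (10.6%) rose, against 4.86% of all regions tested, and 3 (2.44%) fell, against 3.91%. CC chemokines had 8 higher and 2 lower of 47, CXC chemokines 2 and 0 of 26, and receptors 3 and 1 of 50. The direction depends on centring, since the library medians differed by -0.31 on the log2 scale, and without centring 1 region was higher and 2 were lower.

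Ccl3 had 47.2 and 46.4 in TIM4+ knockouts, against 26.0 and 17.2 in controls, 18.1 kb downstream of its start (chr11:83631108-83631440, log2 fold change 1.42, SE 0.25, adjusted p = 2.34e-06). It was the only named region of this comparison to pass under every alternative tried, and its groups did not overlap. Ccr3, the eotaxin receptor, had 24.9 and 43.7 against 22.6 and 16.5 at 5.2 kb upstream (log2 fold change 1.05, adjusted p = 0.00392), and its ligand gene Ccl24 38.9 and 58.7 against 34.1 and 29.0 (log2 fold change 0.90, adjusted p = 0.00358). Ccl2 had 33.8 and 45.0 against 26.0 and 23.8 (chr11:82022599-82022988, log2 fold change 0.94, adjusted p = 0.00603), Ccl7, which binds CCR2 too, 15.3 and 15.7 against 11.6 and 7.92 (log2 fold change 0.94, adjusted p = 0.0432), and Ccr1 106.6 and 81.2 against 74.6 and 58.8 at 36.8 kb downstream (log2 fold change 0.79, adjusted p = 0.000367). The knockout values were higher without overlap in each, in places by a small margin. Among the falls, Cxcr4 had 14.0 and 17.1 against 40.5 and 41.6 at 50.1 kb upstream (log2 fold change -1.04, SE 0.27, adjusted p = 0.00414). Ccl17 had 10.2 and 8.19 against 23.1 and 27.1 at 5.7 kb upstream (log2 fold change -1.05, adjusted p = 0.0148), and Ccl6 had 21.7 and 28.0 against 54.4 and 46.9 at 11.7 kb upstream (chr11:83604668-83604962, log2 fold change -0.70, adjusted p = 0.044). Controls were higher without overlap in all of these.

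The 16 calls of the TIM4+ comparison became 7 without control library 1, 6 without control library 2 and 10 without knockout library 1. Without control library 2 the adjusted p was 0.211 for Cxcr4, 0.319 for Ccl17 and 0.0797 for Ccr3, and without control library 1 it was 0.105 for Ccl2 and 0.0625 for Ccl24. Without knockout library 1 it was 0.239 for Ccr1, and without knockout library 2 it was 0.161 for Ccl17, 0.116 for Ccr3 and 0.0657 for Ccl24. The Ccl7 and Ccl6 calls were lost without any 1 of the 4 libraries (0.0788 to 0.303 and 0.0574 to 0.326). Without centring the calls of Ccr1, Ccl24, Ccl2, Ccl7, Ccr3 and Ccl6 were lost (0.0742 to 0.466), and that of Ccl6 also with quantile normalization (0.0552) and when every library of that experiment was fitted together (0.0603). Group-only regions numbered 7 for TIM4+ knockouts (3.54% of 198, beside 1.06%), 2 of them at Ccr3, and 8 for controls (4.04%, beside 7.69%), with Ccl22 and Ccr2 at 2 each. With the same number of strongest peaks taken from each library the balance turned to 11 and 4.

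TIM4- knockout Kupffer cells were compared with the same TIM4+ controls, so genotype and TIM4 status differ together. Ccr1 rose in 7 of 12 tested regions, with the largest fold change at its start, and Ccl3, Ccrl2, Pf4, Cxcl1 and Cxcl2 also rose in 1 to 3 regions each. Cxcl13 fell in all 3 of its tested regions, Ccl6 in 3 of 8 and Cxcr4 in 1 of 8. Of 136 member regions at 31 genes, 22 (16.2%) rose, against 7.03% of all regions tested, and 9 (6.62%) fell, against 6.68%. Receptors had 13 higher and 2 lower of 56, CXC chemokines 5 and 3 of 28, and CC chemokines 4 and 4 of 52. The median log2 fold change over receptor regions was 0.22, beside 0.08 over all regions. Summed signal of 5 T and NK cell markers was 124.2 to 151.4 in TIM4- knockouts and 51.48 to 60.1 in controls, that of 5 dendritic cell markers 608.9 to 723.1 and 385.6 to 475.5, that of 5 monocyte markers 40.67 to 60.52 and 105.7 to 142.3, and that of 7 Kupffer cell markers 950.5 to 974.4 and 1111 to 1321. Cd3e, Ncr1, Siglech, Ly6c2 and Chil3 had no peak in TIM4- knockouts or in controls. Timd4 had none in TIM4- knockouts, and Cd2, Ccr7 and F13a1 had none in controls. The part of these lists in the member values was not tested.

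The start of Ccr1 had 78.4 and 77.3 in TIM4- knockouts, against 17.4 and 9.9 in controls (chr9:123968551-123968860, log2 fold change 2.08, SE 0.25, adjusted p = 5.54e-13). The Ccr1 region 27.9 kb downstream had 39.5 and 45.8 against 18.5 and 11.9 (log2 fold change 1.05, adjusted p = 0.00309). TIM4- values were higher without overlap in both. Cx3cr1 had 85.4 and 89.9 against 42.8 and 25.1 at 13.3 kb downstream (log2 fold change 0.99, adjusted p = 8e-05), and its start had 25.9 and 20.2 in TIM4- knockouts and no peak in controls. Ccrl2 had 61.9 and 51.7 against 17.9 and 18.5 at 23.5 kb upstream (log2 fold change 1.18, adjusted p = 0.000143). Ccl3 had 67.8 and 77.9 against 26.0 and 17.2 at 18.1 kb downstream (log2 fold change 1.33, adjusted p = 1.39e-06). The groups did not overlap in any of these. At their starts, Pf4 had 125.5 and 135.1 against 56.1 and 40.9 (log2 fold change 1.02, SE 0.18, adjusted p = 1.18e-06) and Cxcl2 414.2 and 417.2 against 261.4 and 194.8 (log2 fold change 0.48, adjusted p = 0.00996). The TIM4- libraries held the highest Cxcl2 values of the series.

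Cxcl13 had 21.2 and 16.3 in TIM4- knockouts, against 42.2 and 35.7 in controls, 42.7 kb upstream (log2 fold change -1.42, adjusted p = 1.23e-05). It had 31.2 and 18.0 against 37.6 and 48.2 at 37.4 kb upstream (log2 fold change -1.22, adjusted p = 0.000103) and 50.1 and 38.1 against 79.8 and 55.5 at 21.7 kb upstream (log2 fold change -1.0, adjusted p = 6.33e-05). Controls were higher without overlap in all of them. Cxcr4 had 17.7 and 20.2 against 40.5 and 41.6 at 50.1 kb upstream (log2 fold change -1.48, SE 0.27, adjusted p = 3.39e-06), the region that was lower in TIM4+ knockouts as well. Ccl6 had 24.2 and 33.8 against 54.4 and 46.9 at 11.7 kb upstream (log2 fold change -1.20, adjusted p = 2.76e-05) and 24.2 and 29.4 against 47.4 and 39.0 at 7.7 kb upstream (chr11:83600678-83600981, log2 fold change -1.07, adjusted p = 0.000556). Ccl17 had 9.43 and 6.54 against 13.9 and 20.5 at 8.6 kb upstream (log2 fold change -1.41, adjusted p = 0.000997). Knockout values were the lower ones throughout.

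The 31 calls of the TIM4- comparison became 17 without control library 2, when the adjusted p was 0.152 for Ccl17, 0.0969 for Cxcl13 at 37.4 kb and 0.0602 for Ccr1 at 27.9 kb. Without knockout library 2 it was 0.0508 for that Cxcl13 region and 0.0703 for that Ccr1 region. The library medians differed by 0.40, and without centring 49 regions were higher and 5 lower, and the Ccl6 call at 7.7 kb upstream was lost (0.0663). Group-only regions numbered 18 for TIM4- knockouts (8.70% of 207, beside 6.6%) and 4 for controls (1.93%, beside 3.5%). Cxcl5 held 6 of the TIM4- ones, of 5.3 to 15.8 tags, and Ccr3 and Ccr7 2 each.

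TIM4- and TIM4+ knockouts were then compared, with the knockout libraries shared with the comparisons above. The start of Ccr1 had 78.4 and 77.3 in TIM4- cells, against 19.1 and 17.7 in TIM4+ cells (log2 fold change 1.27, SE 0.24, adjusted p = 9.06e-05). The groups were far apart, and the call held under every alternative tried. Of 133 member regions at 32 genes this was the 1 (0.752%) that rose, against 0.607% of all regions tested, and 4 (3.01%) fell, against 1.5%. Cxcl13 fell in all 3 tested regions and Cxcr5 in 1 of 6. At 42.7 kb upstream Cxcl13 had 21.2 and 16.3 in TIM4- cells, against 31.3 and 28.7 in TIM4+ cells (log2 fold change -1.41, adjusted p = 0.000348). At 37.4 kb the values were 31.2 and 18.0 against 26.8 and 34.1 (log2 fold change -1.09, adjusted p = 0.0108), and at 21.7 kb 50.1 and 38.1 against 37.7 and 56.6 (log2 fold change -0.83, adjusted p = 0.0238). Values overlapped at both of these, and also at the Cxcr5 region, which had 23.6 and 27.8 against 26.2 and 36.9 (log2 fold change -1.02, adjusted p = 0.0169).

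These falls rest on centring, because the library medians differed by 0.75. Without it 81 member regions were higher and 0 lower, and the adjusted p of the Cxcl13 regions was 0.0636 to 0.792 and that of the Cxcr5 region 0.429. Each omission of 1 library ended some of the 5 calls. Over such omissions the largest adjusted p of the Cxcl13 regions was 0.0804 at 42.7 kb (without TIM4+ library 1), 0.426 at 37.4 kb (without TIM4- library 2) and 0.37 at 21.7 kb (without TIM4- library 2), and the Cxcr5 call was lost without any library (0.0673 to 0.269). Quantile normalization ended the Cxcr5 call and the Cxcl13 calls at 37.4 and 21.7 kb (0.0534 to 0.0601). Group-only regions numbered 18 for TIM4- cells (8.78% of 205, beside 10.9%), 3 at Cxcl5 and 2 each at Ccl22, Ccr2, Cx3cr1, Cxcr4 and Cxcr5, and 1 for TIM4+ cells (0.488%, beside 0.559%). With the same number of strongest peaks per library the balance turned to 2 and 4.

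**Figure D5:**
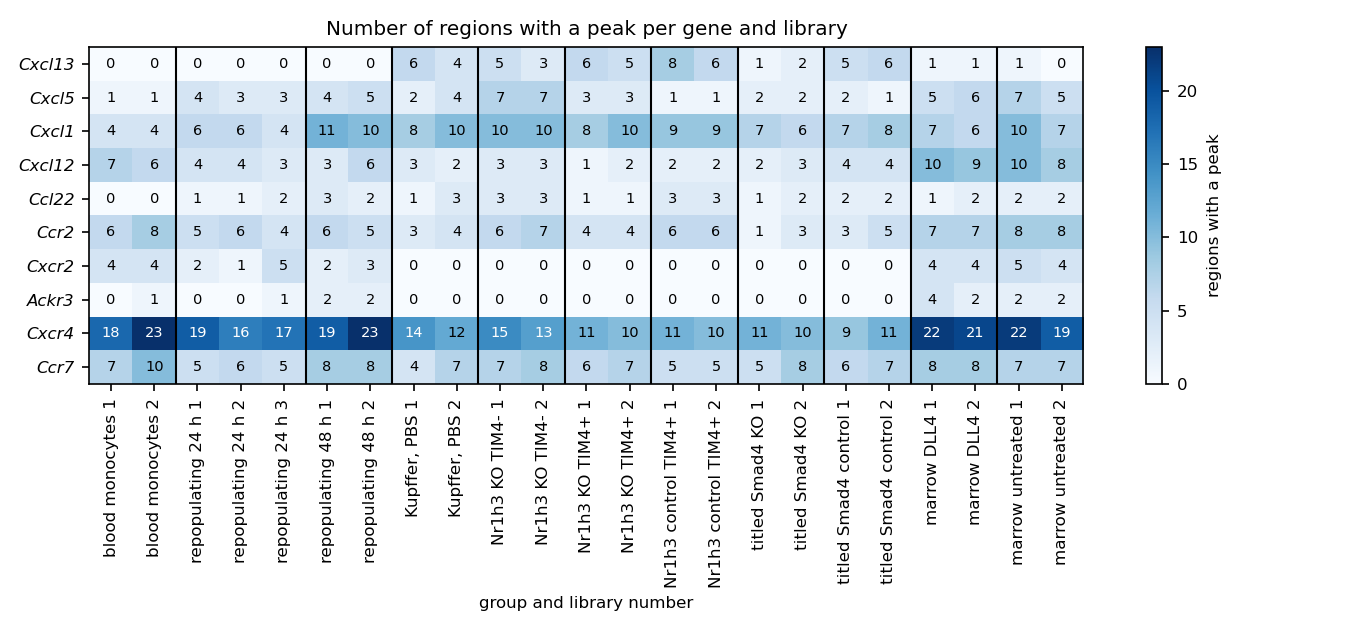
Number of regions with a peak (colour) for each gene (rows) in each library (columns). Cxcr2 has none in the 12 Kupffer cell libraries, and Cxcl13 none in the 7 libraries of blood, 24 h and 48 h cells.

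Libraries titled Smad4 knockout were set against those titled control. Smad4 carries TGF-β and BMP signals to the nucleus. Signal at Cxcl13, Cxcr5, Cxcl14, Ccl6 and Ccr7 was lower and signal at Cx3cr1, Ccl3 and Cxcr4 higher in the libraries titled knockout. Of 109 member regions at 31 genes, 5 (4.59%) rose, against 1.57% of all regions tested, and 6 (5.5%) fell, against 1.5%. Receptors had 4 higher and 2 lower of 46, CC chemokines 1 and 2 of 42, and CXC chemokines 0 and 2 of 21.

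Cxcl13 had 10.6 and 14.3 in libraries titled knockout, against 39.4 and 54.7 in those titled control, 21.7 kb upstream (log2 fold change -1.50, SE 0.26, adjusted p = 3.26e-05). The groups were apart, and the call held under every alternative tried. The region 42.7 kb upstream had no peak in the libraries titled knockout and 18.2 and 25.1 in those titled control. The region 37.4 kb upstream had 11.8 in 1 library titled knockout and no peak in the other, against 19.4 and 25.7. Cxcr5, the receptor for Cxcl13, had 9.49 and 11.8 against 26.6 and 35.0 (log2 fold change -1.11, adjusted p = 0.0118), and Cxcl14 15.6 and 12.4 against 30.9 and 49.7 at 37.9 kb upstream (log2 fold change -1.10, adjusted p = 0.00681). Ccl6 had 6.7 and 16.1 against 27.9 and 27.9 at 11.7 kb upstream (log2 fold change -1.0, adjusted p = 0.041) and 14.0 and 11.8 against 34.5 and 30.6 at 7.7 kb upstream (log2 fold change -0.94, adjusted p = 0.0424). Ccr7, which guides cells to lymph nodes, had 18.4 and 32.3 against 53.3 and 54.7 in a region 23.8 kb from the gene (log2 fold change -0.78, adjusted p = 0.0317). The libraries titled control were higher without overlap in all of these.

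Cx3cr1 had 18.4 and 23.6 at its start in libraries titled knockout, against 9.08 and 7.65 in those titled control (log2 fold change 1.56, SE 0.31, adjusted p = 0.000402). It also had 17.3 and 19.2 against 11.5 and 6.56 at 25.0 kb downstream (log2 fold change 1.32, adjusted p = 0.0064) and 22.9 and 31.0 against 17.0 and 18.0 at 13.3 kb downstream (log2 fold change 0.92, adjusted p = 0.0394). The values did not overlap in any Cx3cr1 region named. At their starts, Ccl3 had 53.6 and 63.3 against 40.6 and 43.7 (log2 fold change 0.79, adjusted p = 0.00681) and Cxcr4 35.2 and 37.2 against 24.2 and 29.0 (log2 fold change 0.77, adjusted p = 0.0499). These margins were narrow though without overlap. Summed signal of 7 Kupffer cell markers was 322.1 to 560.2 in libraries titled knockout and 713.3 to 945.1 in those titled control, and that of 5 B cell markers 63.11 to 116.6 and 121.1 to 154.2. Their part in the Cxcl13 and Cxcr5 values was not tested.

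The 11 Smad4 calls became 5 without knockout library 1, 5 without control library 1 and 1 without control library 2. Without control library 2 the adjusted p was 0.0955 for the Cx3cr1 start, 0.377 for Cx3cr1 at 25.0 kb, 0.265 for Cxcl14, 0.175 for Cxcr5 and 0.188 for Ccl3. Without control library 1 it was 0.112 for Cxcr5, without knockout library 1 0.0932 for Cx3cr1 at 25.0 kb and 0.103 for Ccl3, and without knockout library 2 0.138 for Cxcl14. The calls of Ccr7, both Ccl6 regions, Cx3cr1 at 13.3 kb and the Cxcr4 start were lost under at least 3 of the 4 omissions, with adjusted p up to 0.512. Group-only regions numbered 5 for libraries titled knockout (2.59% of 193, beside 1.24%), with Cxcr4 at 2, and 11 for those titled control (5.70%, beside 6.97%), with Cxcl13 at 2. With the same number of strongest peaks per library the balance turned to 12 and 9. Without centring 1 region was higher and 4 lower, with library medians differing by -0.34, and the calls of Ccl3, Ccr7, the Cxcr4 start, Ccl6 at 7.7 kb and Cx3cr1 at 25.0 and 13.3 kb were lost (0.0518 to 0.685). Quantile normalization ended those of Ccr7, the Cxcr4 start, both Ccl6 regions and the same Cx3cr1 regions (0.0603 to 0.113). A merging overlap of 100 bp or leaving out regions under a mean of 15 ended 3 calls. They were the Cxcr4 start, Cx3cr1 at 13.3 kb and Ccl6 at 11.7 kb (0.0509 to 0.0736). A pseudocount of 10 also ended that Ccl6 call (0.0697).

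DLL4, a ligand that activates Notch receptors, was given to marrow macrophages for 24 h. Of 166 member regions at 33 genes, 4 (2.41%) rose, against 2.36% of all regions tested, and 1 (0.602%) fell, against 1.52%. Cx3cr1 fell 18.7 kb downstream of its start, with 32.7 and 30.1 in treated cells, against 75.6 and 67.4 in untreated cells (log2 fold change -1.20, SE 0.22, adjusted p = 4.58e-05). The values did not overlap there, whereas at the Cx3cr1 start they did, with 75.6 and 78.0 in treated cells, against 78.6 and 77.1 in untreated cells.

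Single regions of 4 genes rose after DLL4. At its start, Ccr3 had 26.9 and 32.2 in treated cells, against 15.4 and 11.4 in untreated cells (log2 fold change 1.06, adjusted p = 0.0289). Cxcr4 had 30.5 and 35.6 against 16.6 and 14.0 at 40.5 kb upstream (log2 fold change 1.03, adjusted p = 0.0269). Ccl4, a CC chemokine that attracts monocytes and T cells, had 43.6 and 52.0 against 26.4 and 22.8 (log2 fold change 0.89, adjusted p = 0.0217), and Ccr1 76.3 and 60.9 against 37.5 and 37.7 at 15 kb downstream (log2 fold change 0.81, adjusted p = 0.0111). Treated cells were higher without overlap in each. Each of the 5 calls was lost without untreated library 1, and each other omission ended some of them. Over the omissions the log2 fold change was -1.26 to -1.13 for Cx3cr1 and 0.64 to 0.98 for Ccr1. Without untreated library 1 the adjusted p was 0.0834 for Cx3cr1, and it was 0.231 for Ccr1 without that library and 0.264 without DLL4 library 1, while Ccr3, Cxcr4 and Ccl4 lost their calls without any 1 library (0.0815 to 0.243) and with quantile normalization (0.0596 to 0.0658). Group-only regions numbered 4 for treated cells (1.67% of 240, beside 2.1%), 2 of them at Ccr7, and 5 for untreated cells (2.08%, beside 2.0%).

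Over the 9 comparisons 28 members had a called region in at least 1, and 6 were tested and called in none. The latter were Ccl8, Cxcl12, Cxcl16, Cxcr2, Cxcr3 and Ackr3. Cxcl12, the ligand of CXCR4, had its strongest signal in marrow macrophages, with 73.4 and 68.4 after DLL4 and 74.3 and 51.7 untreated at 22.1 kb downstream of its start, against 23.6 and 26.1 in blood and 9.48 in 1 of 2 Kupffer libraries. Cxcl16, a membrane-bound ligand of CXCR6, had a region at the edge of its gene body in 22 libraries, with 89.6 and 88.8 in TIM4- knockouts, 42.8 and 60.1 in TIM4+ knockouts and 67.7 and 55.5 in controls. Cxcr3, the receptor for Cxcl9 and Cxcl10, had 57.4 and 62.9 after DLL4 and 44.2 and 42.0 untreated at its start, and 6.06 to 43.7 elsewhere. Ackr3, a scavenger of CXCL12, had 32.7 and 33.5 after DLL4 and 62.0 and 44.7 untreated at 21.8 kb downstream, and no peak there in other cells. The platelet chemokine gene Ppbp had a peak in 3 marrow libraries, of 17.4 in 1 DLL4 library and of 22.7 and 14.9 untreated, and was never tested. Ccl8, a ligand of CCR2 and other receptors, had its more often called region in 14 libraries at 5.58 to 28.9.

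Other genes of the chemokine system and of receptor signalling were counted from lists. Of 22 further chemokine system genes, with 114 regions, 10 regions were higher and 6 lower of 28 in Kupffer cells against blood, beside 25.7% higher and 25.3% lower of all regions tested. In 24 h cells against blood 6 and 2 of 34 were called, beside 16.7% and 9.33%, and in Kupffer cells against 48 h 3 and 5 of 32, beside 13.7% and 12.6%. In TIM4- knockouts 4 of 31 were higher than in controls and 0 lower, beside 7.03% and 6.68%, and in TIM4+ knockouts 2 of 30 and 0, beside 4.86% and 3.91%. For 48 h against 24 h, TIM4- against TIM4+ knockouts, Smad4 and DLL4 none of 36, 30, 28 and 56 regions passed. Ccl25, a ligand of CCR9, had 57.8 to 82.4 in Kupffer cells, against 9.16 to 11.4 in blood (log2 fold change 3.03, adjusted p = 3.16e-12), and Ccr6, the receptor for CCL20, 25.9 to 32.2 against 100.8 to 114 (log2 fold change -1.46). Of 24 genes that act downstream of chemokine receptors, with 537 regions, 29 regions (20.4%) were higher and 39 (27.5%) lower of 142 in Kupffer cells against blood, near the shares over all regions. In 24 h cells against blood 16 (9.88%) and 24 (14.8%) of 162 were called, and in Kupffer cells against 48 h 7 (4.12%) and 24 (14.1%) of 170. TIM4- knockouts against controls gave 17 (8.99%) and 10 (5.29%) of 189, TIM4+ knockouts 8 (4.71%) and 5 (2.94%) of 170, and TIM4- against TIM4+ knockouts 0 and 5 (2.76%) of 181, the last beside 0.607% and 1.5% of all regions. For 48 h against 24 h there were 4 (2.27%) and 3 (1.70%) of 176, beside 1.92% and 3.53%, for Smad4 3 (1.84%) and 2 (1.23%) of 163, beside 1.57% and 1.5%, and for DLL4 11 (4.28%) and 5 (1.95%) of 257, beside 2.36% and 1.52%. Rgs1, which ends G protein signals of chemokine receptors, had 129 to 196.6 in 24 h cells, against 10.6 to 16.9 in blood (log2 fold change 3.73, adjusted p = 5.04e-12). Coro1a, an actin regulator, had a log2 fold change of -2.60 in Kupffer cells against blood, and Arrb1, which encodes β-arrestin 1, of -2.52. These genes were picked for their large changes.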

How the data were processed

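Open chromatin was measured by ATAC-seq in 23 mouse libraries. Per the labels' protocol, cells were treated with Nextera transposase, and fragments were cut from a gel by size. The submitters' processing notes name Bowtie2, HOMER and mm10, and the versions are not given in the sources used here. Per the file headers, peaks were found by the authors in each library by itself and without input (factor style, size and minimum distance of 200 bp, false discovery rate of 0.001, 4 times the signal of the surrounding 10000 bp, local Poisson p of 0.0001), which set thresholds of 8 to 11 tags. The signal used is the deposited normalised tag count, tags in a peak scaled to 10 M. The deposited findPeaks score entered no test. A peak that fails the threshold leaves no value, so a missing peak is not a measured 0. Depth of 10.4 to 18.4 M tags limits low peaks, and no interval was computed because peaks were chosen on their own tags.

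Peaks on 19 autosomes and X were used, without 1205 elsewhere. Merging those with an overlap of 1 bp or more left 155137 regions (median 261 bp wide), the strongest peak of a library giving its value, and 137567 of them lay within 50 kb of one of 21627 protein-coding genes of GRCm38.p6 (RefSeq). Signal was tested as log2(value + 1), centred on each library's median, with limma 3.58.1 in R 4.3.3 (only the groups compared in a fit, mean-variance trend, two-sided, Benjamini-Hochberg adjustment over all regions shared by all libraries of both groups, threshold 0.05). A fold change on this scale understates that of low regions. The script was tested on simulated data. Tables were made with Python 3.11.15, pandas 2.3.3 and numpy 2.4.6, and figures with matplotlib 3.10.9.

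Replicate numbers shared between groups were not used to pair libraries, except in the alternative with a replicate block. The members and lists were chosen with earlier results of these data known. Per comparison the text names member regions with an adjusted p under 0.05, at most the 6 largest log2 fold changes in each direction, and genes with at least 2 group-only regions. Start-site and most widely called regions are named besides. Alternatives changed the merging overlap, distance limit, centring, pseudocount, low-value filter, fitted libraries, peak threshold and list length, and left out each library in turn.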

Additional observations from a re-analysis of the deposited data

How the results depend on the processing

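No named region changed direction under any alternative, and 38 of 79 stayed past the threshold under every one. With the comparisons in the order of the report (24 h against blood, 48 h against 24 h, Kupffer against 48 h, Kupffer against blood, TIM4+ knockout, TIM4- knockout, TIM4- against TIM4+, Smad4 by title, DLL4), member calls numbered 37, 1, 29, 45, 16, 31, 5, 11 and 5. A limit of 10 kb, which leaves fewer regions, gave 22, 11, 29, 10, 16, 1 and 6 for 24 h against blood, Kupffer against 48 h, Kupffer against blood, TIM4+, TIM4-, TIM4- against TIM4+ and Smad4. Without centring the counts were 0 for 48 h, 46 for Kupffer against 48 h, 3 for TIM4+, 54 for TIM4-, 81 for TIM4- against TIM4+ and 5 for Smad4. Quantile normalization gave 2 for TIM4- against TIM4+, 5 for Smad4 and 2 for DLL4, a pseudocount of 10 gave 10 for TIM4- against TIM4+, and leaving out regions under a mean of 15 gave 7 for Smad4. The cause was not tested. Leaving out 1 library gave 21 to 44, 0 to 1, 15 to 27, 35 to 43, 6 to 11, 17 to 26, 2 to 3, 1 to 8 and 0 to 2.

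Group-only regions numbered 20, 13, 41, 68, 15, 22, 19, 16 and 9. Peaks of at least 15 gave 13 for 24 h against blood, 10 for TIM4- and 11 for TIM4- against TIM4+. Lists of equal length gave 11, 5 and 25 for 24 h against blood, 48 h against 24 h and Kupffer against 48 h, 11 for TIM4- and 6 for TIM4- against TIM4+. The 10 kb limit gave 12, 6, 18 and 33 for the repopulation comparisons, 12 for TIM4-, 10 for TIM4- against TIM4+, 7 for Smad4 and 5 for DLL4. Leaving out 1 library, which eases the rule, gave 24 to 36, 19 to 30, 54 to 61, 76 to 90, 25 to 34, 29 to 35, 26 to 36, 23 to 39 and 20 to 25. With the replicate block the calls were 17 for TIM4+, 32 for TIM4-, 5 for TIM4- against TIM4+ and 5 for DLL4. Same-numbered libraries did not deviate together (correlations of 0.0088, -0.0043, 0.061 and -0.038). With 2 libraries per group, this cannot show whether they shared an animal or a culture. With 2 or 3 libraries per group small changes can be missed, and low peaks near the threshold limit the group-only counts.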

Other observations

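Some start-site peaks of members were present in some groups and missing in others. The start of Ccr3 (chr9:124021747-124022107) had 14.7 and 26.1 in TIM4- knockouts and 11.5 and 17.7 in TIM4+ knockouts and no peak in Nr1h3 controls, blood, 24 h, 48 h or PBS-treated Kupffer cells. It had 10.6 and 11.8 in libraries titled Smad4 knockout and 8.48 and 10.9 in those titled control, so the peak was not limited to knockouts. The region at the start of Cxcl1 (chr5:90891202-90891550) had 70.7 and 85.5 in TIM4- knockouts, 29.4 and 48.5 in TIM4+ knockouts and 39.9 and 25.7 in controls, with no peak in blood or in marrow macrophages. A second region over the Cxcl1 promoter (chr5:90890837-90891086) had no peak in blood either, but had one of 7.99 in 1 DLL4-treated and of 8.6 in 1 untreated marrow library. Ccl22 had no peak at its start in blood, and 13.1, 7.26 and 10.4 at 24 h, 18.3 and 19.8 at 48 h and 29.4 and 29.7 in Kupffer cells. These regions were picked after their values were seen.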
